A study of Drosophila melanogaster with 3 samples.

Results

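The genes described here encode the kinase Raf and 9 other proteins that make, receive, transmit or restrain the epidermal growth factor (EGF) signal in Drosophila: Egfr, spi, rho, S, aos, sty, pnt, aop, edl and Raf, 10 of 13945 protein-coding genes on the chromosome arms. They were chosen by symbol with earlier results of the same peak lists known, and Raf was added for its many peaks, so their counts of peaks are descriptions with no test. A peak belonged to a gene when the start site of that gene was the nearest protein-coding transcription start site (TSS) and lay within 10 kb of the summit, the position of highest signal. By this rule 28 of the 3644 peaks of the conservative list on the arms belonged to the 10 genes. The data are chromatin immunoprecipitation sequencing (ChIP-seq) of croc, a transcription factor with a forkhead domain, carried as a fusion with a green fluorescent protein (croc-eGFP). Per the labels, transgenic flies of the strain croc-GFP carried the fusion, whole embryos aged 0 to 18 h were used, chromatin was sonicated to fragments of 200 to 800 bp, and an antibody against GFP pulled down the fusion protein. All 3 samples were biological replicates of this 1 group, so no sample differs in genotype, treatment or stage. The embryos pooled all cell types and nearly the whole of embryogenesis, and the lists do not tell in which cells the protein was bound.

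EGF receptor signalling is used again and again in the fly embryo, in the ventral ectoderm, the trachea, the muscle founders and the nervous system. The ligand Spitz (spi) is made as an inactive membrane precursor, Star (S) carries it out of the endoplasmic reticulum and the protease Rhomboid (rho) cleaves it into an active signal. The receptor Egfr then acts through Ras, Raf and the MAP kinase cascade on the ETS-domain transcription factors Pointed (pnt), an activator, and Yan (aop), a repressor, while the ETS-related regulator encoded by edl antagonises Yan. Argos (aos), a secreted antagonist that binds the ligand, and Sprouty (sty), an intracellular inhibitor, are feedback inhibitors. The forkhead protein Crocodile (croc) is needed for development of the anterior head of the embryo.

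The sequences around 6 of the 28 summits are shown here because they include the strongest peak of the set and of Raf, S, aop and spi, and the one summit with the forkhead core TGTTTAC. Each is 101 bases long with the summit in the middle, read 5′ to 3′ on the plus strand of the Release 6 reference sequence from RefSeq (dm6 coordinates), in lower case. Capitals mark forkhead words (TATTTAC, also its variant TATTTAT, and likewise TGTTTAC with its variant TGTTTAT, on either strand) and the ETS word AGGAAGT. None of these windows overlapped an annotated exon.
aos, strongest peak, chr3L:16480514-16480614: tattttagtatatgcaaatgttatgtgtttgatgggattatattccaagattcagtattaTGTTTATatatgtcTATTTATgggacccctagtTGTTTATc
Raf, strongest peak, chrX:2297657-2297757: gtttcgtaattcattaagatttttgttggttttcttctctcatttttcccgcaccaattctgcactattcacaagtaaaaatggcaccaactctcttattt
S, strongest peak, chr2L:1075900-1076000: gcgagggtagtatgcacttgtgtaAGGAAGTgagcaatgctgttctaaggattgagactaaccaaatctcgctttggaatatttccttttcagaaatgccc
S, peak 3, chr2L:1072333-1072433: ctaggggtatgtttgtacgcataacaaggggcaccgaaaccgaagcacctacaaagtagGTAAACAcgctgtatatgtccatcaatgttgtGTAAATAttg
aop, strongest peak, chr2L:2163611-2163711: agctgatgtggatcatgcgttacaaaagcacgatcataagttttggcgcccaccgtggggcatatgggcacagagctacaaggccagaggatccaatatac
spi, its one peak, chr2L:19575782-19575882: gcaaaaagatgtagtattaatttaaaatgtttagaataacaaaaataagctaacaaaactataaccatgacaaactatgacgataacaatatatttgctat
The aos window held 3 forkhead words in its right part, the third peak of S held 2, and the others held none. In the third peak of S, the word GTAAACA is the reverse complement of TGTTTAC and was the one match to that core among the 28 summits (3.57%), near the 2.44% of all conservative summits with one.

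**Figure D1:**
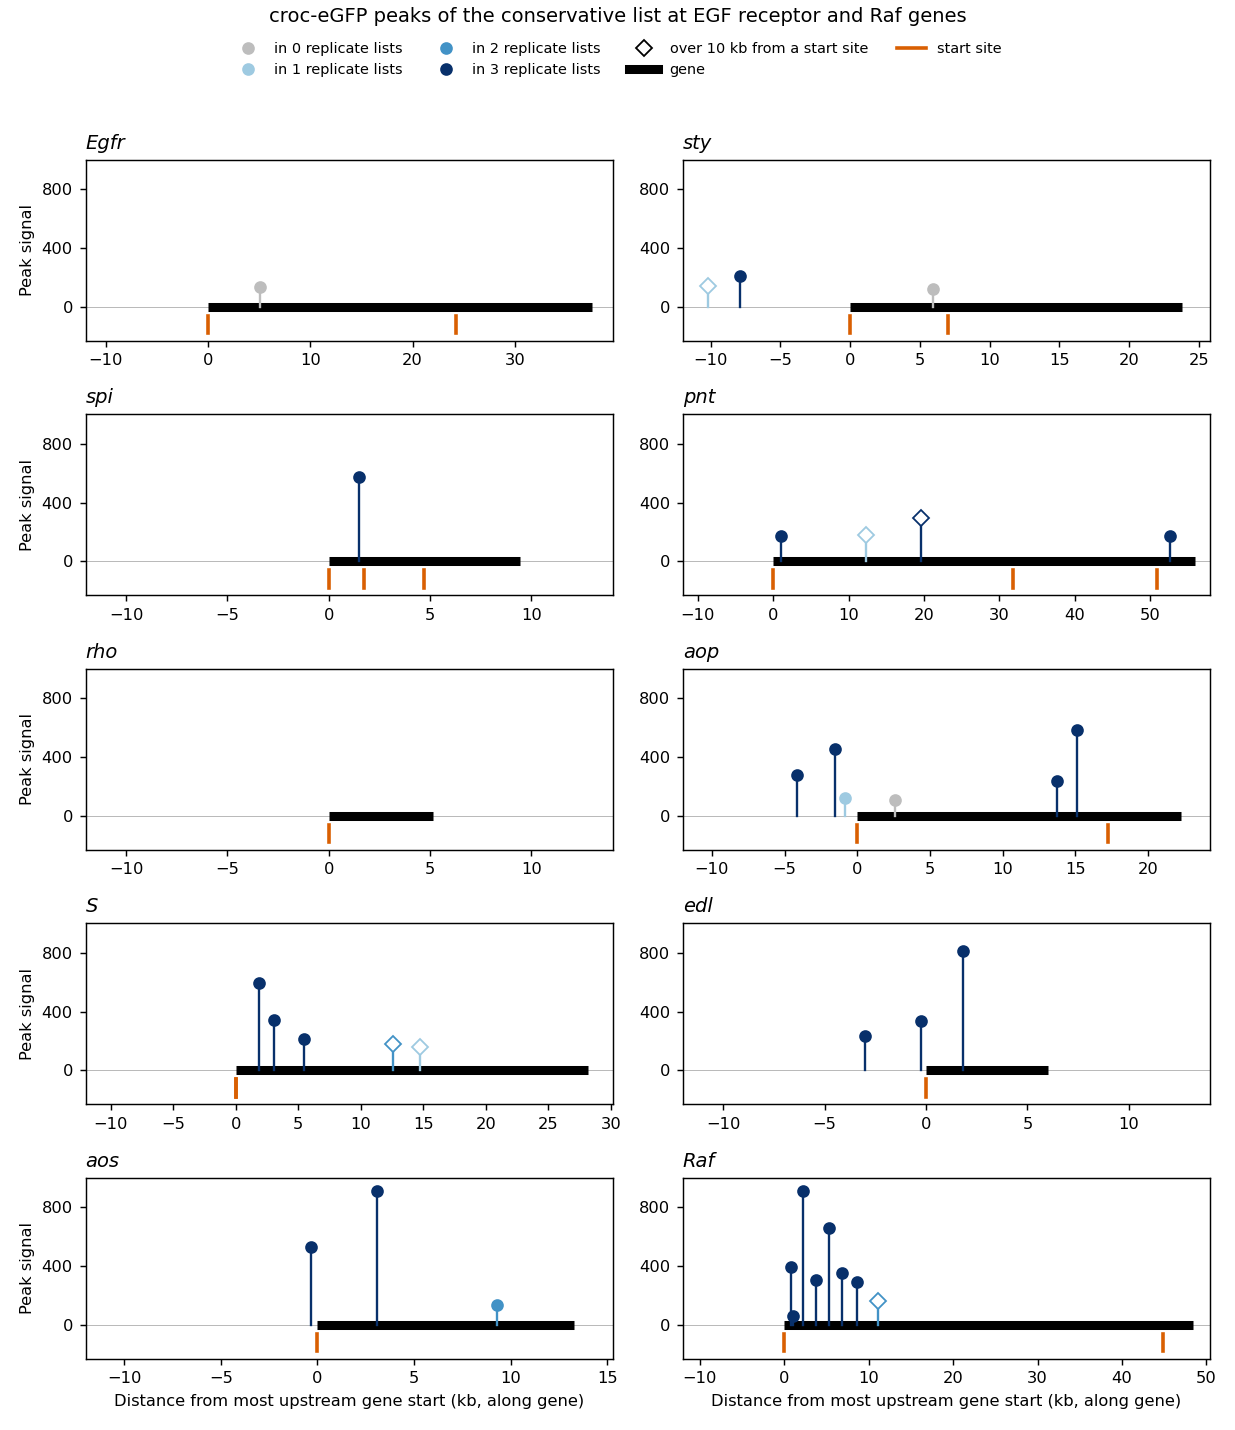
Conservative peaks at the 10 genes, with the distance from the most upstream gene start on the x axis (kb, along the direction of transcription) and the deposited signal on the y axis; black bars are genes, orange ticks start sites, colours the number of thresholded replicate lists with a summit within 250 bp, and open diamonds the 6 peaks over 10 kb from a start site. Conservative peaks inside Egfr, edl and Raf that lay nearest to other genes are not drawn. The tallest peaks were inside aos, Raf and edl, rho had none, and the drawn peaks of Raf stood at its upstream start.

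Of the 10 genes, 9 had an assigned conservative peak and rho had none. Of all protein-coding genes, 15.9% had at least 1. Of the 10 genes, 5 (S, aos, aop, edl and Raf) had 3 or more, against 1.67% of all genes. Raf was chosen for its many peaks, so its place in both counts was fixed in advance. Without Raf, 8 of 9 genes had a peak, and S, aos, aop and edl had 3 or more. Each replicate list gave 8 genes with a peak (8 ± 0, SD, n = 3), with Egfr as well as rho left without one, against 14.9% of all genes in replicate 1, 12.3% in replicate 2 and 9.73% in replicate 3. The replicate lists held 27, 24 and 23 peaks assigned to the 10 genes (24.7 ± 2.08, SD, n = 3).

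All 10 genes had more sequence nearest to their start sites than the median gene. This sequence within 10 kb had a median of 15.9 kb, from 7.69 kb at edl to 42.6 kb at pnt, against a median of 4.33 kb for all genes. It was summed over all start sites of a gene, 3 at pnt, and is not one stretch free of other start sites. Among the 20% of genes with the longest nearest sequence were 7 of the 10, and 6 of these 7 had a peak, where 29.3% of all genes in that class did. Per 10 kb of nearest sequence the 10 genes had 1.48 peaks and all genes 0.346. Raf, chosen for its many peaks, is among the 6 of 7 and adds 7 of the 28 peaks behind the 1.48. Without it 21 peaks remained. The part of gene length in the count was not tested.

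**Figure D2:**
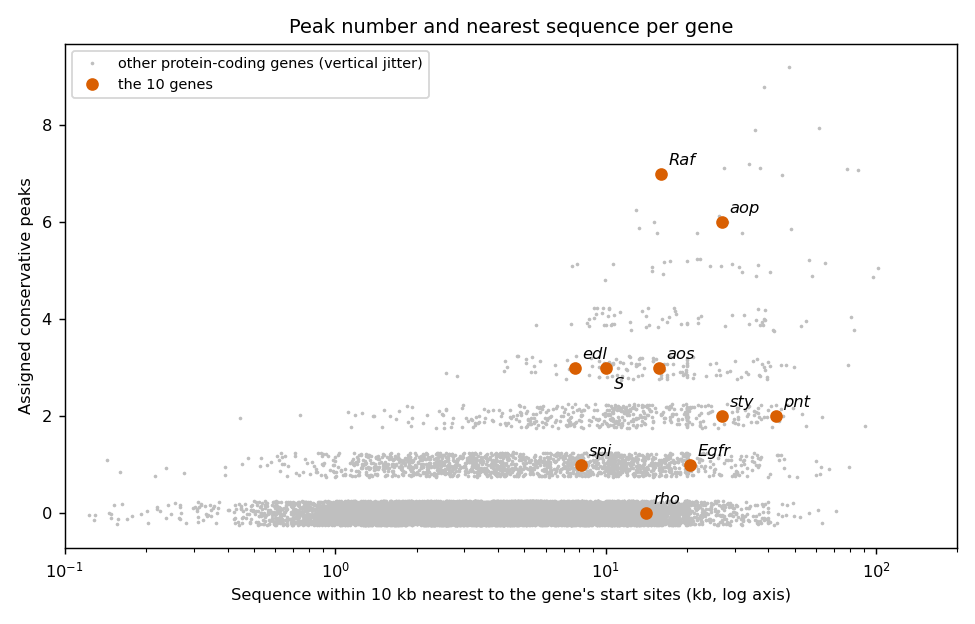
Number of assigned conservative peaks (y axis) against the length of sequence nearest to the start sites of each gene within 10 kb (x axis, kb, log scale) for all protein-coding genes, with the 10 genes in orange. Per 10 kb of this sequence Raf had 4.37 peaks, edl 3.90, S 2.98 and aop 2.23, and rho had none in 14.1 kb.

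Of the genes that make and release the ligand, S carried 3 peaks, spi 1 and rho none. The peaks of S (FBgn0003310, 2L 1049674 to 1077815, minus strand) all lay in introns, 1861, 3104 and 5428 bp downstream of the nearest start site, with signals of 593.9, 345.0 and 210.7 in the conservative list. The strongest had a signal of 258.6 in replicate 1, 199.0 in replicate 2 and 125.0 in replicate 3, where it stood in the strongest 0.975%, 1.94% and 1.46% of the ranked lists. Signals come from the peak caller of the authors and are compared only within a list. The third peak of S, the one with the forkhead core, was a weaker site in every replicate, with signals of 54.7, 93.4 and 55.2 in replicates 1, 2 and 3. The divergent gene ast begins beside S, and its TSS was 1998 bp from the strongest summit, against 1861 bp for S, so the 3 peaks lie near both genes.

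The single peak of spi (FBgn0005672, 2L 19567900 to 19577315, minus strand) had a signal of 571.2 and its summit lay 245 bp upstream of the middle of 3 start sites and 1483 bp downstream of the first. It had signals of 237.7, 157.4 and 182.0 in replicates 1, 2 and 3, in the strongest 1.13%, 3.00% and 0.649% of the ranked lists. In replicate 3 it was the highest ranked of the 28 peaks, at 149 of 1822 in the thresholded list, and in replicates 1 and 2 it stood at 280 of 3198 and 522 of 2433. Its window contained no word of any of the motifs searched.

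The protease gene rho (FBgn0004635, 3L 1463811 to 1468944, plus strand) had no assigned peak, either among the conservative peaks or in a thresholded list of any replicate. The nearest conservative summit was 15.7 kb from its start, inside stet, another rhomboid family gene, with a signal of 304.5. In the ranked lists, which include peaks below the threshold, the nearest summits to the rho start were 781 bp away in replicate 1 (rank 16012 of 24819), 709 bp in replicate 2 (14297 of 17443) and 32 bp in replicate 3 (9711 of 22972). Their signals were 17.6, 22.1 and 22.0, so that rho had weak peaks below the threshold only.

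The receptor gene Egfr (FBgn0003731, 2R 21522420 to 21559977, plus strand) had 1 weak peak, in its first intron 5106 bp from the upstream start site. Its signal of 134.2 put it at rank 2664 of 3650, and no thresholded replicate list had a summit within 250 bp. Below the threshold it was present in the ranked list of replicate 1 with a signal of 38.4 (strongest 15.9%) and in that of replicate 3 with 48.5 (strongest 7.98%), and it had no counterpart in replicate 2. It was the one member peak missing from a ranked replicate list. Another peak inside the Egfr gene, with a signal of 143.2, lay nearest to CG30283, a gene nested in the Egfr intron, 2075 bp away, and was shared with 1 replicate. A weaker summit beside it, with a signal of 12.1, was also nearest to CG30283, 2274 bp away, and shared with 1 replicate.

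Raf (FBgn0003079, X 2295466 to 2343870, plus strand), the kinase that passes the signal from Ras to the MAP kinase cascade, had 7 peaks, the most of the 10 genes. Of 13945 genes, 11 had 7 or more, Raf included, and the highest number was 9. The signals were 909.7, 656.0, 396.2, 354.5, 304.0, 291.2 and 57.4, and each of the 7 was shared with all 3 replicates. The weakest summit lay 201 bp from the one with a signal of 396.2 and matched the same summit in each replicate, so the 7 peaks stand for 6 separate sites, which is the number in each replicate list (6 ± 0, SD, n = 3).

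The strongest Raf peak had a signal of 423.4 in replicate 1, 308.7 in replicate 2 and 172.5 in replicate 3. It stood in the strongest 0.310%, 0.797% and 0.749% of the ranked lists, and its summits in the 3 replicates lay at 2297706, 2297706 and 2297707 on X. The second, with a signal of 656.0, had 286.8, 229.1 and 125.0. The weakest separate site, with a signal of 291.2, had 116.2, 75.5 and 83.5. The same pair of sites ranked first and second within Raf in every replicate, and the order of the other 4 differed between replicates.

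These sites were at one end of a long gene. The annotation gives Raf 2 start sites 44.8 kb apart, with 1 transcript from each, and the peaks lay 834 to 8661 bp downstream of the upstream one. The summit with a signal of 396.2 was in exon 2 of the upstream transcript, which is not coding, and the others were in the intron of 43.6 kb that follows it. Coding sequence begins at 2340886 on X. The downstream start site at 2340298 had no conservative peak within 10 kb, and the nearest summit was 10776 bp from it with a signal of 237.8. The next gene by TSS was CG2865 for all 7 summits, 2889 to 10716 bp away on the other side of the upstream start, and with that start site left out Raf had no assigned peak.

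The separate Raf sites formed one row of 7.83 kb. Neighbouring summits were 1407, 1492, 1514, 1578 and 1836 bp apart, and a further peak with a signal of 165.2 followed 2389 bp after the last, 11050 bp from the start site and therefore outside the limit. The same intron held 2 more conservative peaks, nearest to the nested genes CG14050 (signal 358.4) and CG2854 (signal 237.8), so that 10 conservative peaks lay inside the Raf gene. The GAGA word GAGAGAG was found at one Raf summit, that with a signal of 354.5, in a run of GA repeats, and at no other summit of the set. This is 1 of 28 (3.57%, exact 95% interval 0.0904 to 18.3), against 1.04% of all conservative summits. In windows 500 bp to the left of the summits the word was in 1 of 28 (3.57%) and in 2.61% over all conservative peaks.

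Of the feedback inhibitors, aos had 3 peaks and sty 2. The secreted antagonist aos (FBgn0004569, 3L 16470386 to 16483650, minus strand) had the highest signal of the whole set, 910.4, 3086 bp inside the gene in an intron. In the replicates this peak had signals of 389.1, 367.3 and 151.7, in the strongest 0.375%, 0.505% and 0.962% of the ranked lists. A promoter peak 316 bp upstream of the start had a signal of 528.6, and 235.4, 190.5 and 109.6 in replicates 1, 2 and 3. The third, 9304 bp inside the gene, was weak, with a signal of 132.2, and was found in the thresholded lists of replicates 1 and 2 near their ends (strongest 89.6% and 97.4%) and only below the threshold in replicate 3. The aos gene lies within CG33158, on the opposite strand, and the next protein-coding TSS was over 11 kb away from each of the 3 summits, at 11302 bp or more.

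The Sprouty gene sty (FBgn0014388, 3L 3401153 to 3424935, minus strand) had a peak 7925 bp upstream of its start with a signal of 210.9, in an intron of eIF5B, whose own nearest start site was 27743 bp away. It had signals of 77.4, 79.7 and 54.7 in replicates 1, 2 and 3. A weaker one, 1022 bp upstream of the inner start site with a signal of 119.7, was in no thresholded replicate list and stood in the strongest 15.6%, 18.8% and 18.4% of the ranked lists. Another peak near sty, 10199 bp upstream with a signal of 143.2, fell just outside the 10 kb limit, and the third peak of aos, at 9304 bp, fell just inside it.

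Among the transcription factors, aop and edl had stronger peaks than pnt. The Yan gene aop (FBgn0000097, 2L 2156484 to 2178754, minus strand) had 6. Upstream of the outer start site were summits 866, 1514 and 4176 bp away with signals of 120.9, 456.5 and 278.8, and upstream of the inner start site, within the gene, were summits 2134 and 3453 bp away with signals of 583.7 and 240.5. The strongest had signals of 262.9, 235.5 and 99.4 in replicates 1, 2 and 3, and the peak 4176 bp upstream had 100.8, 94.4 and 113.0. The latter was the stronger of the pair in replicate 3 and the weaker in replicates 1 and 2. The remaining peak, 2588 bp inside the gene with a signal of 107.0, and the one at 866 bp were the weakest 2 of the gene and were shared with 0 and 1 replicates.

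The gene edl (FBgn0023214, 2R 18667527 to 18673536, minus strand), also called mae, had 3 peaks, 1 inside this short gene of 6010 bp and 2 upstream. The strongest, 1804 bp inside the gene in an intron, had a signal of 813.8, and 353.0, 336.2 and 134.4 in replicates 1, 2 and 3. A promoter peak 240 bp upstream had a conservative signal of 333.4, and of 143.9, 145.5 and 44.6 in replicates 1, 2 and 3, so that it stood in the strongest 21.5% and 24.7% of the thresholded lists of replicates 1 and 2 and near the end of that of replicate 3, at 96.5%. The third, 3034 bp upstream with a signal of 234.4, was shared with all 3 replicates. Another 2 conservative summits inside edl, with signals of 157.9 and 22.5 and both shared with 2 replicates, lay nearer to the start of CG33136, 2880 and 3105 bp away. The Pointed gene pnt (FBgn0003118, 3R 23290231 to 23346167, minus strand), the longest of the 10 at 55937 bp, had peaks of 172.8 and 170.1, 967 and 1688 bp inside its first and last start sites. They had signals of 61.4, 58.8 and 41.8, and 47.3, 72.4 and 45.0, in replicates 1, 2 and 3, and both stood in the weaker 50% of the conservative list. The strongest peak inside pnt, with a signal of 296.7 and shared with all 3 replicates, was 12202 bp from the nearest start site and outside the limit, as was a further one of 178.0 at 12251 bp. In all, 6 peaks nearest to these genes were beyond 10 kb, from sty at 10199 bp to S at 14760 bp, with signals from 143.2 to 296.7.

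**Figure D3:**
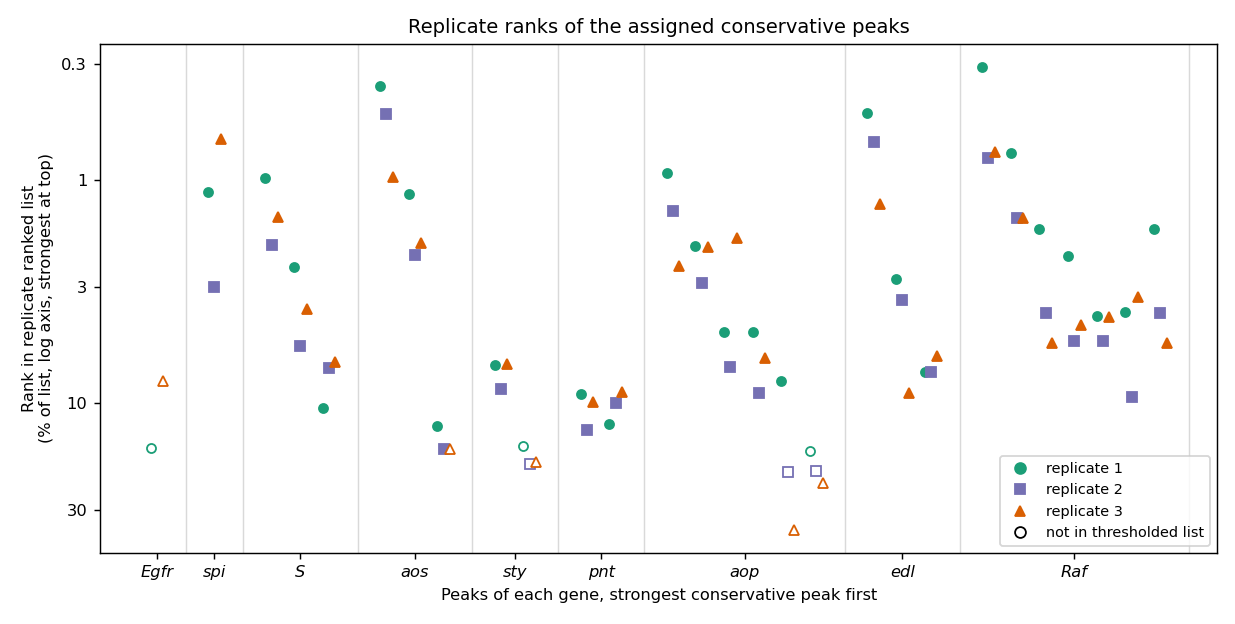
Rank of each of the 28 peaks in the ranked list of each replicate as a percent of the list (y axis, log scale, strongest at the top), grouped by gene and ordered by conservative signal (x axis); filled symbols are also in the thresholded list of that replicate. The first peaks of aos, edl and Raf stood in the strongest 1.27% or less of every list, and the open symbols were at Egfr, sty, aop and the third aos peak.

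In the replicate lists, 23 of the 28 peaks (82.1%, exact 95% interval 63.1 to 93.9) had a summit within 250 bp in all 3 thresholded lists, against 43.6% of all conservative peaks. The interval covers counting over peaks only, and peaks of 1 gene are not independent. Without Raf it was 16 of 21 (76.2%). The weakest Raf summit, of 57.4, matched the same replicate summits as its stronger neighbour. With that summit left out the share was 22 of 27 (81.5%). The median signal of the member peaks was 298, against 183 for all peaks, and the part of signal in the sharing was not tested. With all peaks weighted to the signal classes of the members, in steps of 20% of the list, 63.8% were shared. In the strongest 20% of the list all 11 member peaks were shared, where 98.9% of all peaks were. In the following classes of 20%, from strong to weak, the counts were 7 of 7 against 79.2% of all peaks, 4 of 4 against 25.6%, 0 of 3 against 1.78% and 1 of 3 against 12.5%. That 1 was the weakest Raf summit. The classes are broad, and signal was not matched within them. The 7 member peaks stood at 20.4% to 37.1% of the list and the 4 at 42.1% to 55%. The 5 member peaks that were not shared with all 3 had signals of 107.0 to 134.2, and of the 23 that were, only the shoulder peak of Raf was below 170. In the single thresholded lists 25, 24 and 23 of the 28 were found in replicates 1, 2 and 3 (89.3%, 85.7% and 82.1%), against 83.3%, 67.5% and 50.1% of all conservative peaks. The conservative list derives from the same 3 libraries, per the deposited listings, so the replicate lists are not independent of it. The contrast was smaller in the ranked lists, where 96.4% of the members' peaks (exact 95% interval 81.7 to 99.9) and 92.4% of all were in all 3. In all 3 other thresholded lists of the series 82.1% of the members' peaks and 68.7% of all were found. There a match needed an identical interval and summit instead of a summit within 250 bp, so these 2 shares are not comparable with the replicate shares.

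**Figure D4:**
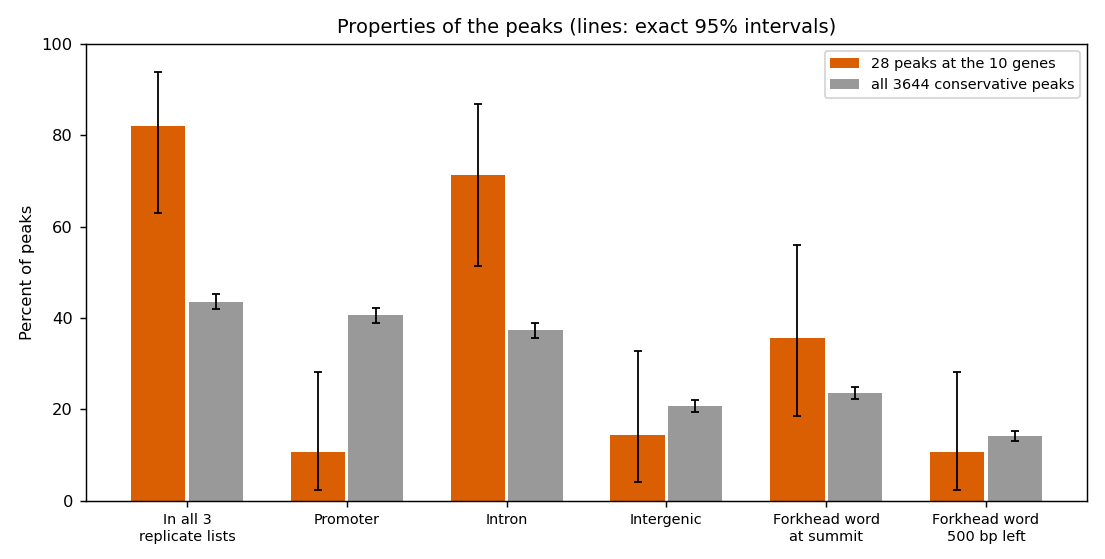
Percent of peaks (y axis) with each property for the 28 peaks at the 10 genes and for all 3644 conservative peaks; bars are shares and lines exact 95% binomial intervals over peaks. The 28 peaks were shared with all replicates in 82.1% of cases and lay in introns in 71.4%, and at promoters in 10.7%.

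The peaks of these genes were mostly intronic. Of the 28 summits, 20 (71.4%, exact 95% interval 51.3 to 86.8) lay in introns of protein-coding genes, 4 outside protein-coding genes, 1 in a non-coding exon of Raf and 3 (10.7%, 2.27 to 28.2) within 500 bp of a TSS, those of spi, aos and edl. Of the 4 outside protein-coding genes, the aop summit with a signal of 278.8 lay inside the non-coding RNA gene lncRNA:CR43751, and its window overlapped an exon. Of all conservative summits 37.3% were intronic and 40.6% at promoters (45.8% of those within 10 kb of a TSS). The median distance to the TSS was 2414 bp, against 1002 bp for all. The rule that assigned the peaks used distance to a TSS, so these shares describe the set and were not tested.

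The summits were as rich in A and T as the others of the list. In the 101 bases around them 67.8% ± 8.85 of bases were A or T (SD over 28 peaks), and 56.2% ± 7.90 in windows 500 bp to the left, against 67.6% and 56.2% over all conservative peaks. The summit window was the richer for 21 of 28. The strongest aop peak was an exception, at 49.5% against 53.5% in its flank. A forkhead word was within 50 bp of 10 summits (35.7%, exact 95% interval 18.6 to 55.9), against 23.6% of all conservative summits, and in 3 of the flanking windows (10.7%) against 14.1%. The 10 summits were 2 each at S, aos, pnt and aop and 1 each at edl and Raf, and the interval includes the share of the whole list. Egfr, spi and sty had none, and Raf had 1 word in 7 windows, at the summit in exon 2. An ETS word (CGGAAGT, its variant AGGAAGT and the related CGGATGT, on either strand), of the kind that Pointed and Yan bind, was found at 2 summits. These were that of Egfr and the strongest of S (7.14%, exact 95% interval 0.877 to 23.5), against 1.92% of all summits, a share inside the interval. In the flanking windows an ETS word was at none of the 28 and at 2.55% of all. The Zelda word CAGGTAG and the DRE word TATCGATA were at none, against 0.329% and 0.933%. A word is a match of letters and not a measured site, and forkhead words overlap in AT-rich sequence, as in the third aos peak.

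The rest of the pathway was searched with 5 lists of 60 genes in all, chosen with the results for the members known, and every symbol was matched. In total 21 of 60 (35.0%) had an assigned conservative peak, and the replicate lists gave 23, 18 and 15. Of the ligands and processing genes outside the members, 3 of 8 had one, namely ru, a rhomboid family gene (338.1), the ligand gene Krn (333.9) and stet (304.5), each with 1 peak shared with all 3 replicates. In the cytoplasmic cassette from adaptor proteins through Ras to MAP kinase 2 of 14 besides Raf had one (14.3%, near the 15.9% of all genes), the adaptor gene dos (184.7) and Ras85D, which encodes the Ras protein itself (161.3), found in 3 and 2 replicate lists, while Sos, Dsor1 and rl, which encode the exchange factor, MEK and the MAP kinase, had none. Of the negative regulators 3 of 10 had one, led by RasGAP1, a Ras GTPase-activating protein gene, with a signal of 1113.3 (rank 61 of 3650, 704 bp from the TSS), followed by the adhesion gene ed (375.5) and the MAP kinase phosphatase gene Mkp3 (255.1), the last in 1 replicate list only. Of the downstream factors and targets 8 of 11 had one (72.7%), led by slbo, a C/EBP transcription factor gene (926.6), the corepressor gene gro (452.7) and the homeobox gene tup (318.4). Of the same 11 genes, 8, 6 and 4 had a peak in replicates 1, 2 and 3. The 8 of replicate 1 include vvl, which had no conservative peak, and leave out mirr, whose conservative peak (87.3) was in no replicate list. Of the genes of other receptor tyrosine kinases and their ligands 5 of 17 had one, led by stumps, an FGF receptor adaptor gene (450.0), the FGF-like ligand gene ths (356.4) and the PDGF and VEGF-like ligand gene Pvf3 (325.8). All genes of these lists stand beside the 15.9% of all protein-coding genes with a peak, with no test. That share does not allow for nearest sequence. In the class with the longest nearest sequence, described above for the members, 29.3% of all genes had a peak. Most of the downstream genes are in that class, among them slbo and tup with a conservative peak and vnd and vvl without one. So are stumps, ths, Pvf3, htl and InR, the 5 genes of the receptor list with a peak. From the same list sev, pyr, bnl, Alk, jeb, Pvr and Pvf2 are in that class without one. The part of nearest sequence in these shares was not tested.

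The genes whose numbers of peaks were most like those of Raf were found by the sum of absolute differences over the conservative list and the 3 thresholded replicate lists. Raf had 7, 6, 6 and 6. CHES-1-like, a forkhead gene, and tara both had 7, 7, 6 and 6, a sum of 1. Tlk had 8, 7, 6 and 5, CG7560 had 6, 5, 5 and 5, and Ptpmeg2 had 6, 6, 5 and 3. The nearest sequence of these 5 genes ran from 15.2 kb for CG7560 to 61.7 kb for Tlk, against 16.0 kb for Raf. The 4 lists share libraries, and the measure covers only 4 values per gene.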

How the data were processed

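The authors' peak lists were used as deposited. Each replicate has a ranked and a thresholded list on dm6 made by IDR (irreproducible discovery rate), which scores how well the rank of a peak repeats between lists, per the labels and the deposited listings. A conservative thresholded list and 3 other thresholded lists cover the series. No source used here names an aligner, a peak caller or a version. The deposited signal is the peak caller's own value, of a scale not stated, and was compared only within a list. No read counts were used, so depth is unknown. Control libraries were not analysed here.

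The thresholded lists held 3198, 2433 and 1822 peaks in replicates 1, 2 and 3, and the conservative list 3650, of which 3644 lay on the 6 chromosome arms used. Each summit was assigned to the gene of the nearest protein-coding TSS (Ensembl release 115, BDGP6.54) within 10 kb. Summits within 250 bp counted as shared, and a promoter reached 500 bp to each side of a TSS. For the 3 other thresholded lists of the series a match needed an identical interval and summit. Intervals are exact (Clopper-Pearson) 95% binomial intervals and cover counting only. With 1 group of 3 replicates there is no contrast, and no test was made. Python 3.11.15 with pandas 2.3.3 and scipy 1.17.1 was used, and the assignment, sharing and word search were tested on simulated data.

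The members, the gene lists and the words were chosen with earlier results of these data known. Genes named were the 10 members, the 3 genes of each list with the strongest peak, the 5 genes with counts most like those of the member with most peaks, and genes that share a member's peak. Sos, Dsor1, rl, mirr and the list genes named for their class of nearest sequence were picked later, knowing their values. Alternatives were different distances, assignments, subsets, sharing rules, windows and words, and leaving out each replicate from the sharing rule.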

Additional observations from a re-analysis of the deposited data

How the results depend on the processing

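Of 75 recomputed values, 71 stayed within 1.5 times the count or inside the exact interval of the share, and 4 did not. The settings overlap, so the 75 are not separate checks. A limit of 20 kb and no limit gave the same 34 peaks, and both Raf settings below the same 21. The intervals were also wide, such as 18.6 to 55.9 for the forkhead share. The number of the 10 genes with a peak ran from 7 to 9 and the number of peaks from 20 to 34. The share of member peaks in all 3 replicate lists fell to 59.4% with peaks assigned by gene body, which drops peaks upstream of aos, aop, edl and sty and adds deeper ones, and rose to 100% among the strongest 50% of peaks (78.7% of all such peaks) and to 96.4% in the ranked lists (92.4% of all peaks). The share with a forkhead word fell to 3.57% with TGTTTAC alone (2.44% of all summits). The promoter share ran from 3.12% to 21.4%.

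Leaving out a replicate kept the conservative peaks shared with both other replicates, in a list still made from all 3 libraries. It gave 8 genes in each case, 23 to 24 peaks, 12.5% to 13.0% at promoters and 39.1% to 41.7% with a forkhead word. The 23 to 24 peaks are 82.1% to 85.7% of the 28, so these counts restate the sharing. Leaving out Raf, or its upstream start site, was chosen after seeing the data and left 8 genes and 21 peaks. No paired analysis was possible because the series has 1 group. Depth is unknown, so a peak missing from a thresholded list is not shown to be absent. The Egfr peak was below the threshold in replicates 1 and 3, and in replicate 2 it was missing from the ranked list as well.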
